A study of Mus musculus with 16 samples.

Results

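The 9 genes described here act in blood coagulation and in fibrinolysis, the breakdown of a clot. They are *F3*, *Tfpi*, *Thbd*, *Vwf*, *F13a1*, *Plat*, *Plau*, *Plaur* and *Serpine2*, taken by name from the 55492 genes of the deposited table, and the table held all 9. Each was read in left ventricular RNA from 16 male mice on a C57BL/6 background, aged 8 to 12 weeks, 1 library per mouse. PKM2-/- mice lack the *Pkm2*-specific exon of *Pkm* in every tissue, because a Cre driven by the CMV promoter deleted it in the germline before the Cre allele was bred out. PKM2fl/fl mice carry the floxed allele intact and served as controls, so both genotypes share the floxed origin of the allele. Hearts were taken without surgery (baseline, 2 mice per genotype), or 3 days after sham surgery or permanent ligation of the left anterior descending coronary artery, which causes myocardial infarction (MI; 3 mice per genotype and operation). The description of the series names the part of PKM2 in MI as its question, and the values below describe how the genes of clot formation and clot removal behaved in those 6 groups.

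Coagulation starts when tissue factor, a membrane protein of cells outside the blood stream, meets factor VII of plasma, and it ends when thrombin turns fibrinogen into fibrin and factor XIII crosslinks the fibrin strands. Vessel walls hold the process back through tissue factor pathway inhibitor and thrombomodulin. Fibrin is removed by plasmin, which tissue-type and urokinase-type plasminogen activator release from plasminogen, and serpins such as protease nexin-1 inactivate those activators and thrombin. In the heart, tissue factor is made by cardiomyocytes, von Willebrand factor by endothelium, and urokinase, its receptor and the factor XIII A chain by monocytes and macrophages among other cells.

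Values are normalized read counts, the reads on a gene divided by the size factor of the library. Libraries held 20623769 to 71855101 reads on genes, and 4 loci that carry rRNA reads took 15.8% to 46.0% of them. Reads of *Pkm* as a whole gene, both isoforms together, were 7779 to 12076 in the 8 PKM2fl/fl libraries and 10120 to 16113 in the 8 PKM2-/- libraries, a count that does not check the deletion of a single exon. All 7 cardiomyocyte markers and all 7 endothelial markers searched for were present in every library. The 9 genes rested on 27 reads (*Plaur*, lowest library) to 14237 reads (*F13a1*, highest library), and all 9 were above the minimum mean of 10 normalized reads, as were 20576 genes in all. Because this is whole ventricle, fewer cells of a type and less RNA per cell cannot be told apart in any of the comparisons.

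The 9 genes lie on 9 stretches of 8 chromosomes. In mm10 (GRCm38.p6, RefSeq), *F3* spans chr3:121723537-121735052, *Tfpi* chr2:84432855-84476775, *Thbd* chr2:148404471-148408188, *Vwf* chr6:125552948-125686679 and *F13a1* chr13:36867178-37050244. *Plat* spans chr8:22757722-22782848, *Plau* chr14:20836662-20843388, *Plaur* chr7:24460937-24475970 and *Serpine2* chr1:79794317-79858665. In that annotation no other gene overlaps these spans except at *F13a1*, which the predicted genes *Gm30489* and *Gm30240* overlap. Promoter sequence (RefSeq, GRCm38.p6, from 250 bases before to 50 after a transcript start) was found for 5 of the 9 genes, namely *F3*, *Tfpi*, *F13a1*, *Plaur* and *Serpine2*. The AP-1 motif TGANTCA, which the Fos and Jun family of injury-responsive factors binds and whose reverse complement is the same pattern, was present in the promoters of *F3* and *Plaur* and not in the other 3, against 7.81% of 32851 promoters of that length. These stretches are shown because *F3* and *Plaur* are the genes that moved furthest in opposite directions after MI in PKM2fl/fl hearts, and capitals mark the motif. The *F3* stretch is chr3:121723371-121723428 on the plus strand, with matches 146 and 135 bases before the start. The *Plaur* stretch is chr7:24462394-24462440 on the plus strand, with a match 69 bases before a start that lies inside the annotated gene span.
F3: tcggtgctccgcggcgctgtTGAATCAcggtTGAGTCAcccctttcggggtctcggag
Plaur: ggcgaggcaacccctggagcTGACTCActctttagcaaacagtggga
The motif thus stands in one gene that rose and one that fell, and a match of letters does not show that a factor binds there. Of other patterns searched on both strands, GGGCGG (SP1) was present in *F3*, *Plaur*, *Serpine2* and *Tfpi* and in 35.7% of all promoters, TATAAA in *F3* and *Tfpi* and in 13.6%, NACGTG (the hypoxia response core) in *Tfpi* and in 19.6%, and an NF-kappaB pattern in none of the 5 and in 4.79%.

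Levels were compared between genes per kilobase of the canonical transcript (GENCODE M39), as means over libraries ± SD. The exons of all protein-coding transcripts together span 5971 against 2143 canonical bases for *Tfpi*, 6630 against 2210 for *Serpine2* and 6847 against 3723 for *Thbd*. For *F13a1* they span 4061 against 3954. Reads were counted per gene, so the order below holds for the canonical length and can change with another length. At baseline in PKM2fl/fl hearts, the per-kilobase level was highest for *F13a1* (556 ± 27.1, n = 2) and *Tfpi* (542 ± 116), and the ranges of these neighbours overlapped. *Thbd* (377 ± 2.08) and *Vwf* (327 ± 54.7) followed, each with a range apart from the next, and then *Serpine2* (197 ± 21.1) and *F3* (178 ± 15.2), whose ranges overlapped. *Plat* (122 ± 1.98) stood above *Plau* (34.4 ± 6.68) and *Plaur* (31.1 ± 15.1), and the last pair overlapped. The uninjured ventricle thus held more transcript per kilobase of the inhibitors of coagulation than of the urokinase system. After MI in PKM2fl/fl hearts, *F13a1* (1492 ± 518, n = 3) and *Vwf* (466 ± 20.9) led, *Tfpi* (395 ± 26.4), *Plat* (320 ± 52.7), *Plaur* (314 ± 106), *Thbd* (308 ± 2.73), *Serpine2* (288 ± 43.2) and *Plau* (226 ± 26.3) followed in a chain of overlapping ranges, and *F3* (70.3 ± 14.2) was last, below all of them.

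**Figure D1:**
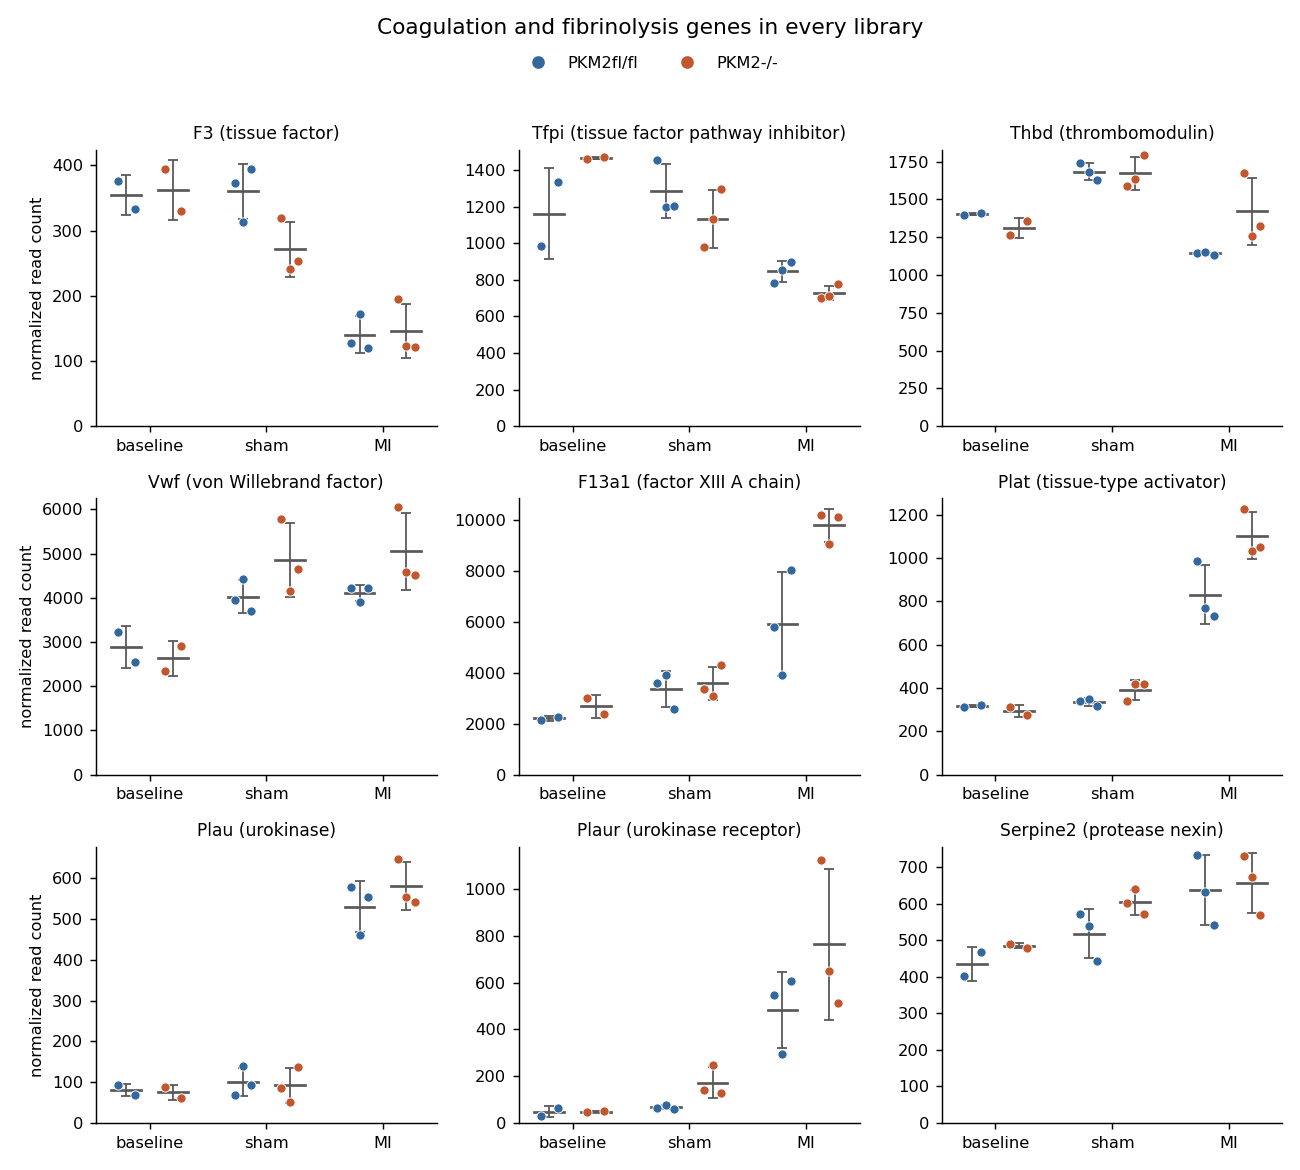
Normalized read count of each of the 9 genes in all 16 libraries (y axis, linear from 0), by treatment (x axis) and genotype (colour); points are mice, horizontal lines are group means and bars are SD (n = 2 at baseline, n = 3 after surgery). *Plat*, *Plau* and *Plaur* sat higher in every MI library than in any other library, and *F3* sat lower in every MI library than in any other.

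MI against sham surgery asks how injury itself moved these genes, in each genotype. In PKM2fl/fl hearts *Plaur*, *Plau* and *Plat* rose, *F3* fell, and these 4 of 9 genes were called, meaning a Benjamini-Hochberg adjusted p under 0.05 over all 20576 genes in limma's test and at least a 2-fold change, against 23.5% of all genes tested. On the adjusted p alone 7 of 9 passed against 50.1% of all genes, 4 higher with *F13a1* (24.8% of all genes) and 3 lower with *Tfpi* and *Thbd* (25.3%), and 8 of 9 had an unadjusted p under 0.05 (55.8%). In PKM2-/- hearts *Plau*, *Plaur*, *Plat* and *F13a1* were called, all higher, against 28.8% of all genes. There, too, 7 of 9 passed on the adjusted p against 56.8%, with *F13a1*, *Plat*, *Plau* and *Plaur* higher (28.7%) and *F3*, *Tfpi* and *Thbd* lower (28.1%), and 7 had an unadjusted p under 0.05 (61.0%). The MI and sham libraries did not overlap for 7 of 9 genes in PKM2fl/fl hearts, against 59.0% of all genes, and for 6 of 9 in PKM2-/- hearts, against 62.3%. Over the 9 genes the median log2 fold change was 0.29 in PKM2fl/fl and 0.11 in PKM2-/- hearts, beside medians over all genes of -0.0025 and 0.010. Scaling to total reads instead of size factors set the median of all genes at -0.18 in PKM2fl/fl and 0.52 in PKM2-/- hearts. For MI against sham, values under that scaling are given where they change a sign, a call or a pass on the adjusted p.

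*F3* encodes tissue factor, the trigger of coagulation. It had 373, 313 and 395 normalized reads in the 3 PKM2fl/fl sham hearts and 128, 173 and 119.8 in the 3 MI hearts. The PKM2-/- hearts had 319.9, 242 and 254 after sham surgery and 195, 123 and 121 after MI. Every MI heart was below every sham heart in both genotypes. Against sham the log2 difference was -1.37 (95% interval -1.78 to -0.95, standard error 0.19, adjusted p = 4.02e-05, limma) in PKM2fl/fl hearts, a 2.58-fold lower level. For PKM2-/- hearts it was -0.91 (standard error 0.19, 95% interval -1.33 to -0.50, adjusted p = 0.000925, limma), which passed on p but stayed short of 2-fold. Without the first PKM2-/- MI replicate, the highest of the 3, it was -1.14 (adjusted p = 0.000123, limma) and past 2-fold, and over all left-out libraries the adjusted p reached at most 0.00651. With total-read scaling it was -0.40 (adjusted p = 0.336, limma) in PKM2-/- hearts. The summed count of the 7 cardiomyocyte markers moved with *F3*, from 852460 to 976136 after sham surgery down to 169408 to 390021 after MI in PKM2fl/fl hearts, and from 759873 to 926580 down to 172879 to 248558 in PKM2-/- hearts. The part of that change in the level of *F3* was not tested.

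*Tfpi* encodes tissue factor pathway inhibitor, which shuts down the complex of tissue factor and factor VII. It had 1458, 1200.0 and 1206 normalized reads in PKM2fl/fl sham hearts and 785, 856 and 897 after MI. The PKM2-/- hearts had 977, 1131 and 1296 after sham surgery and 703, 709 and 775 after MI. The MI hearts were again below all sham hearts of the same genotype, and the inhibitor fell together with its target. The log2 differences were -0.60 (standard error 0.13, adjusted p = 0.00108, limma) in PKM2fl/fl and -0.63 (standard error 0.13, adjusted p = 0.000596, limma) in PKM2-/- hearts, where total-read scaling gave -0.12 (adjusted p = 0.766, limma).

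*Thbd* encodes thrombomodulin, the endothelial receptor that turns thrombin from a clotting enzyme into an activator of the anticoagulant protein C. In PKM2fl/fl hearts it had 1740.2, 1683 and 1629 normalized reads after sham surgery and 1147, 1155 and 1135 after MI, with little spread. PKM2-/- hearts had 1592, 1634 and 1795 after sham surgery and 1677, 1261 and 1326 after MI, where the first MI replicate lay inside the sham range. The log2 difference was -0.55 (standard error 0.10, adjusted p = 0.000283, limma, 0.0551 with total-read scaling) in PKM2fl/fl hearts. Between PKM2-/- groups it was -0.25 (standard error 0.10, adjusted p = 0.0465, limma), which stayed under 0.05 in 2 of 16 fits with a library left out, those without PKM2fl/fl MI replicate 3 or PKM2-/- MI replicate 1 (adjusted p 0.00216 to 0.212 over all 16), and that turned to 0.27 (adjusted p = 0.477, limma) with total-read scaling. The 7 endothelial markers summed to 18392 to 21600 after sham surgery and 21250 to 23594 after MI in PKM2fl/fl hearts, and to 20378 to 21245 and 22195 to 23996 in PKM2-/- hearts.

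*Vwf* encodes von Willebrand factor, the endothelial and platelet protein that tethers platelets to a damaged wall and carries factor VIII. It had 3954, 4424 and 3695 normalized reads in PKM2fl/fl sham hearts and 4222, 3901 and 4218 after MI. The PKM2-/- hearts had 5786, 4144 and 4653 after sham surgery and 6059.6, 4589.9 and 4511 after MI. The groups overlapped in both genotypes, with log2 fold changes of 0.03 (95% interval -0.28 to 0.35, adjusted p = 0.863, limma) and 0.06 (95% interval -0.26 to 0.37, adjusted p = 0.767, limma). A change of 2-fold lies outside both intervals, and total-read scaling gave -0.14 and 0.57.

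*F13a1* encodes the A chain of factor XIII, the enzyme that crosslinks fibrin, and was the most abundant of the 9 genes per kilobase after MI. It had 3591, 3906 and 2576 normalized reads in PKM2fl/fl sham hearts and 5774, 3916 and 8008 after MI, so the lowest MI heart was barely above the highest sham heart. PKM2-/- hearts had 3357, 3079 and 4294 after sham surgery and 10197, 9042 and 10093 after MI, a clear gap. The gene rose by 0.77 on the log2 scale (standard error 0.22, adjusted p = 0.00733, limma, or 0.134 with total-read scaling) in PKM2fl/fl hearts, and by 1.46 (standard error 0.22, adjusted p = 3.67e-05, limma), or 2.76-fold, in PKM2-/- hearts. Without PKM2fl/fl MI replicate 2 it was 1.04 (adjusted p = 0.000415, limma) in PKM2fl/fl hearts and past 2-fold, with adjusted p from 0.000415 to 0.0438 over all left-out libraries. That replicate also had the lowest monocyte and macrophage marker sum of the 3, 61457 beside 72821 and 109364, and a part of the markers in its *F13a1* level was not tested. The sum adds normalized counts, here and below, so its largest genes weigh most. *Fn1* reached 64358 in a library, beside 20738 for *Spp1*, 3024 for *Ccr2* and 2016 for *Cd68*. Strand is not marked by the library kit, so reads of *Gm30489* and *Gm49144*, which overlap *F13a1* on the other strand in GENCODE, cannot be told apart from its own.

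*Plat* encodes tissue-type plasminogen activator, the activator that works on fibrin and is given as a drug to dissolve clots. It had 341, 351 and 316 normalized reads in PKM2fl/fl sham hearts and 986, 769 and 734 after MI. The PKM2-/- hearts had 339, 417 and 419.6 after sham surgery and 1228, 1031 and 1052 after MI. No MI heart came near a sham heart in either genotype. *Plat* rose by 1.29 on the log2 scale (standard error 0.13, adjusted p = 1.7e-06, limma), or 2.45-fold, in PKM2fl/fl hearts and by 1.49 (standard error 0.13, adjusted p = 3.34e-07, limma), or 2.82-fold, in PKM2-/- hearts.

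*Plau* encodes urokinase, the activator that works at cell surfaces and in matrix breakdown. It had 69.3, 139 and 92.7 normalized reads in PKM2fl/fl sham hearts and 578, 461 and 553 after MI. PKM2-/- hearts had 86.8, 52.2 and 138 after sham surgery and 648, 553 and 542 after MI. The sham hearts varied widely among themselves, yet each MI heart lay far above them. *Plau* rose 5.44-fold in PKM2fl/fl hearts (log2 fold change 2.44, standard error 0.30, adjusted p = 1.08e-05, limma) and 6.7-fold in PKM2-/- hearts (2.74, standard error 0.30, adjusted p = 2.49e-06, limma), with 95% intervals of 1.81 to 3.08 and 2.11 to 3.38 on the log2 scale.

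*Plaur* encodes the receptor that holds urokinase at the surface of leukocytes and other cells. It had 62.9, 76.0 and 59.8 normalized reads in PKM2fl/fl sham hearts and 546, 297 and 606 after MI. The PKM2-/- hearts had 141, 248 and 126 after sham surgery and 1127, 650.3 and 514 after MI. The receptor thus started from a higher sham level in PKM2-/- hearts and reached a wider range after MI. It rose 6.92-fold in PKM2fl/fl hearts (log2 fold change 2.79, standard error 0.34, adjusted p = 1.2e-05, limma) and 4.37-fold in PKM2-/- hearts (2.13, standard error 0.34, adjusted p = 8.61e-05, limma). The 8 monocyte and infarct macrophage markers, all called higher after MI in both genotypes, moved with *Plat*, *Plau* and *Plaur*. They summed to 5011 to 11273 after sham surgery and 61457 to 109364 after MI in PKM2fl/fl hearts, and to 6227 to 9792 and 76962 to 81426 in PKM2-/- hearts. Fibroblast sums also rose, from 38478 to 56741 up to 137041 to 149043 in PKM2fl/fl hearts. In PKM2-/- hearts they went from 40430 to 60113 up to 121285 to 159385. Of the 7 fibroblast markers, 3 were called higher and 1 lower in each genotype. Neutrophil and platelet sums were higher on average too. The part of these lists in the 3 rises was not tested.

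*Serpine2* encodes protease nexin-1, a serpin that inhibits thrombin and the plasminogen activators. It had 573, 539 and 443 normalized reads in PKM2fl/fl sham hearts and 734, 633 and 543 after MI. PKM2-/- hearts had 603, 639.9 and 572 after sham surgery and 730.4, 673 and 569.8 after MI. Groups overlapped in both genotypes, and the differences of 0.29 (95% interval 0.01 to 0.58, adjusted p = 0.0783, limma) and 0.11 (95% interval -0.17 to 0.40, adjusted p = 0.485, limma) did not pass. In PKM2fl/fl hearts the adjusted p ran from 0.0317 to 0.823 over the other settings and from 0.0244 to 0.306 over left-out libraries. The activators and the urokinase receptor thus rose by 2.45-fold or more, while the interval of this inhibitor ended below a 2-fold change in both genotypes.

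**Figure D2:**
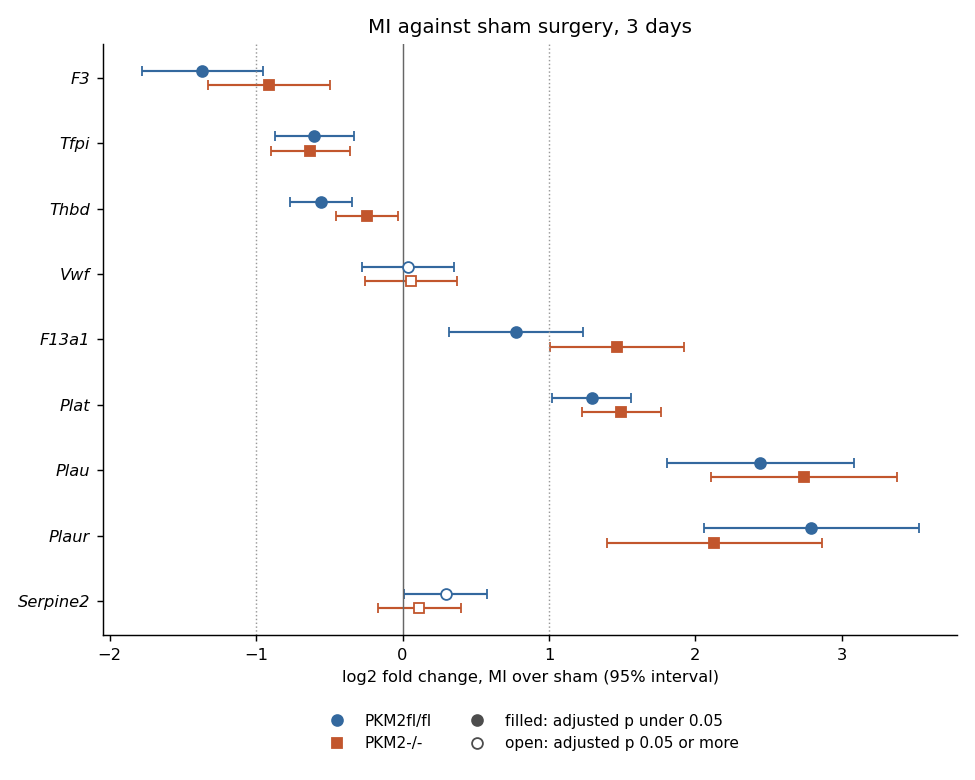
Log2 fold change of MI over sham (x axis; symbols with 95% intervals) for the 9 genes (y axis) in PKM2fl/fl hearts (circles) and PKM2-/- hearts (squares), filled where the adjusted p was under 0.05; dotted lines mark a 2-fold change. *Plat*, *Plau* and *Plaur* lay beyond 2-fold higher in both genotypes, *F3* lay furthest to the lower side, and the intervals of *Vwf* spanned 0.

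Whether MI acted differently in the 2 genotypes was tested by the interaction term. By limma, 0 of 9 genes passed (0 of 20576 genes did, and 1703, or 8.28%, had an unadjusted p under 0.05), and edgeR and DESeq2 also called 0 of 9, with 0 and 36 calls over all genes. At an unadjusted p under 0.05 there were 2, *F13a1* (difference of log2 fold changes 0.69, standard error 0.30, adjusted p = 0.58, limma) and *Thbd* (0.31, standard error 0.14, adjusted p = 0.582, limma). For *F13a1* the rise was larger in PKM2-/- hearts, and for *Thbd* the fall was smaller. For *Plaur*, whose fold change was smaller in PKM2-/- hearts, the difference was -0.66 with a 95% interval of -1.70 to 0.38 (adjusted p = 0.744, limma). The intervals of *F13a1*, *Plau*, *Plaur* and *F3* reach past a 2-fold difference on one side, so a difference of that size between the genotypes lies within them. With total-read scaling the median interaction of all genes was 0.67, that of *F13a1* was 1.38 and that of *Plaur* turned to 0.025.

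Sham surgery against baseline shows what the operation did without ligation, with 2 baseline hearts per genotype. Limma called 0 of 9 genes in PKM2fl/fl hearts, as did edgeR and DESeq2, against 0.170% of all genes called and 0.190% passing on the adjusted p (0.165% higher, 0.0243% lower). An unadjusted p under 0.05 was seen there for *F13a1*, *Thbd* and *Vwf*, 3 of 9 against 8.81%. Among PKM2-/- hearts *Plaur* was called and *Vwf* passed on the adjusted p alone, against 2.66% called and 5.14% passing among all genes, and 5 of 9 had an unadjusted p under 0.05, against 18.9%. *Plaur* had 45.5 and 49.5 normalized reads at baseline and 141, 248 and 126 after sham surgery in PKM2-/- hearts, beside 31.4 and 64.4 at baseline and 62.9, 76.0 and 59.8 after sham surgery in PKM2fl/fl hearts. All 3 PKM2-/- sham hearts were above both baseline hearts, whereas the PKM2fl/fl groups overlapped. The log2 difference was 1.77 (standard error 0.39, 95% interval 0.95 to 2.59, adjusted p = 0.0157, limma), or 3.41-fold, in PKM2-/- hearts and 0.54 (95% interval -0.28 to 1.36, adjusted p = 0.818, limma) in PKM2fl/fl hearts. The difference between the genotypes, a test added after the data were seen, was 1.23 (standard error 0.54, adjusted p = 0.761, limma). The *Plaur* call was lost without PKM2-/- baseline replicate 1 (log2 fold change 1.71, adjusted p = 0.102, limma), without PKM2-/- baseline replicate 2 (1.83, adjusted p = 0.0864, limma) or without PKM2-/- sham replicate 2 (1.48, adjusted p = 0.0575, limma), within a range of 0.01 to 0.102 over all left-out libraries and of 0.000591 to 0.0391 over the other settings.

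*Vwf* had 2353 and 2916 normalized reads at baseline and 5786, 4144 and 4653 after sham surgery in PKM2-/- hearts, and 3230.0 and 2547 followed by 3954, 4424 and 3695 in PKM2fl/fl hearts. Sham hearts stood above baseline hearts in both genotypes. The log2 difference was 0.88 (standard error 0.16, adjusted p = 0.00757, limma) in PKM2-/- hearts and 0.48 (standard error 0.16, adjusted p = 0.311, limma) in PKM2fl/fl hearts, and the difference of 0.39 between them had an adjusted p of 0.888 (limma). Without PKM2-/- baseline replicate 2 it was 1.03 (adjusted p = 0.0274, limma) and past 2-fold, and without PKM2-/- baseline replicate 1 it was 0.72 (adjusted p = 0.0919, limma), within a range of 0.00553 to 0.0919 over left-out libraries and with 0.0857 under total-read scaling. The sham and baseline groups did not overlap for 8 of 9 genes in PKM2-/- hearts, 6 higher and 2 lower, against 34.5% of all genes, and for 3 of 9 in PKM2fl/fl hearts, against 32.5%. *Tfpi* in PKM2-/- hearts went from 1462 and 1469.7 at baseline to 977, 1131 and 1296 after sham surgery (log2 fold change -0.38, adjusted p = 0.149, limma). Marker sums moved with these values, the neutrophil list (6 of 6 detected) from 158 to 214 at baseline to 1053 to 1351 after sham surgery in PKM2-/- hearts, and from 98.1 to 214 up to 242 to 1472 in PKM2fl/fl hearts. The resident macrophage sum went from 2774 to 3488 up to 5425 to 6508 in PKM2-/- hearts and from 2744 to 2753 up to 3601 to 5138 in PKM2fl/fl hearts. *Mrc1* weighs most in that sum, reaching 7670 normalized reads in a library, beside 1285 for *Lyve1*, the next highest. The endothelial sum went the other way from *Vwf*, from 22061 to 23614 down to 20378 to 21245 in PKM2-/- hearts and from 23495 to 24733 down to 18392 to 21600 in PKM2fl/fl hearts. Singly, 0 of 7 endothelial markers passed in either genotype. The 5 endocardial and venous markers had median log2 fold changes of 0.32 in PKM2-/- hearts (2 passed, both higher) and 0.31 in PKM2fl/fl hearts (0 passed). Their sums overlapped between sham and baseline in both genotypes. The part of these lists in the *Plaur*, *Vwf* and *Tfpi* values was not tested.

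PKM2-/- against PKM2fl/fl hearts within a treatment asks what the loss of PKM2 did to these genes. At baseline and after sham surgery the genotypes also differed in the rRNA share of their libraries, and its part in these values was not tested. Limma passed 0 of 9 genes at baseline (0.00972% of all genes called), 0 of 9 after sham surgery (0.00486%) and 0 of 9 after MI (0.413% called, 0.967% passing on the adjusted p). Unadjusted p values under 0.05 were found for 1 gene at baseline (*Tfpi*, against 3.64% of all genes), 1 after sham surgery (*Plaur*, against 9.95%) and 3 after MI (*F13a1*, *Plat* and *Thbd*, against 17.0%). For *Tfpi* at baseline the log2 difference was 0.35 (95% interval 0.02 to 0.68, adjusted p = 1, limma), and it turned to -0.24 with total-read scaling. EdgeR called 0 of 9 in each treatment, and DESeq2 called 0, 1 and 0. The genotypes did not overlap for 5 of 9 genes at baseline, against 34.9% of all genes, for 1 of 9 after sham surgery, against 16.5%, and for 5 of 9 after MI, against 18.9%. Over the 9 genes the median log2 difference was 0.03 at baseline, 0.10 after sham surgery and 0.28 after MI, beside -0.0034, -0.0056 and -0.0035 over all genes, and total-read scaling moved the all-gene medians to -0.59, -0.33 and 0.36.

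After sham surgery, *Plaur* had the largest difference of the 9 genes between genotypes. All 3 PKM2-/- hearts (141, 248 and 126 normalized reads) were above all 3 PKM2fl/fl hearts (62.9, 76.0 and 59.8), with a log2 difference of 1.31, or 2.47-fold (95% interval 0.57 to 2.04, standard error 0.34, adjusted p = 0.177, limma). DESeq2 on the recovered reads called it (1.38, adjusted p = 0.0144), while edgeR did not (1.38, adjusted p = 0.175), and over the other settings the adjusted p went up to 0.393. The monocyte and infarct macrophage markers summed to 5011 to 11273 in PKM2fl/fl and 6227 to 9792 in PKM2-/- sham hearts, the neutrophil markers to 242 to 1472 and 1053 to 1351, and the resident macrophage markers (6 of 6 detected) to 3601 to 5138 and 5425 to 6508. Of these 3 lists, the resident macrophage sums did not overlap between the genotypes, and their part in the *Plaur* difference was not tested.

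After MI, *F13a1* had the largest difference of the 9 genes between genotypes. The PKM2-/- hearts (10197, 9042 and 10093 normalized reads) were all above the PKM2fl/fl hearts (5774, 3916 and 8008). The log2 difference was 0.79, or 1.73-fold (95% interval 0.33 to 1.25, standard error 0.22, adjusted p = 0.0859, limma). DESeq2 passed it on p below 2-fold (0.73, adjusted p = 0.0253), and over the other settings the adjusted p ran from 0.00626 with sample weights to 0.243 with only the groups compared. Without PKM2fl/fl MI replicate 3, the highest of that group, the log2 fold change was 1.04 and the gene was called (adjusted p = 0.00329, limma), and without PKM2fl/fl MI replicate 2, the lowest, it was 0.52 (adjusted p = 0.315, limma), the extremes over all left-out libraries. *Plat* was also higher in every PKM2-/- MI heart, with a log2 difference of 0.42 (standard error 0.13, adjusted p = 0.113, limma), and DESeq2 passed it on p (adjusted p = 0.043) below 2-fold, with other settings up to 0.297. *Thbd* differed by 0.30 (standard error 0.10, adjusted p = 0.141, limma) and *Vwf* by 0.28 (standard error 0.15, adjusted p = 0.344, limma), both without overlap. *Tfpi* was lower in every PKM2-/- MI heart, by -0.21 (adjusted p = 0.415, limma), a sign that turned to 0.15 with total-read scaling. For *F3* and *Serpine2* the 95% intervals ran from -0.37 to 0.46 and from -0.23 to 0.33, so a 2-fold genotype difference after MI lies outside them.

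**Figure D3:**
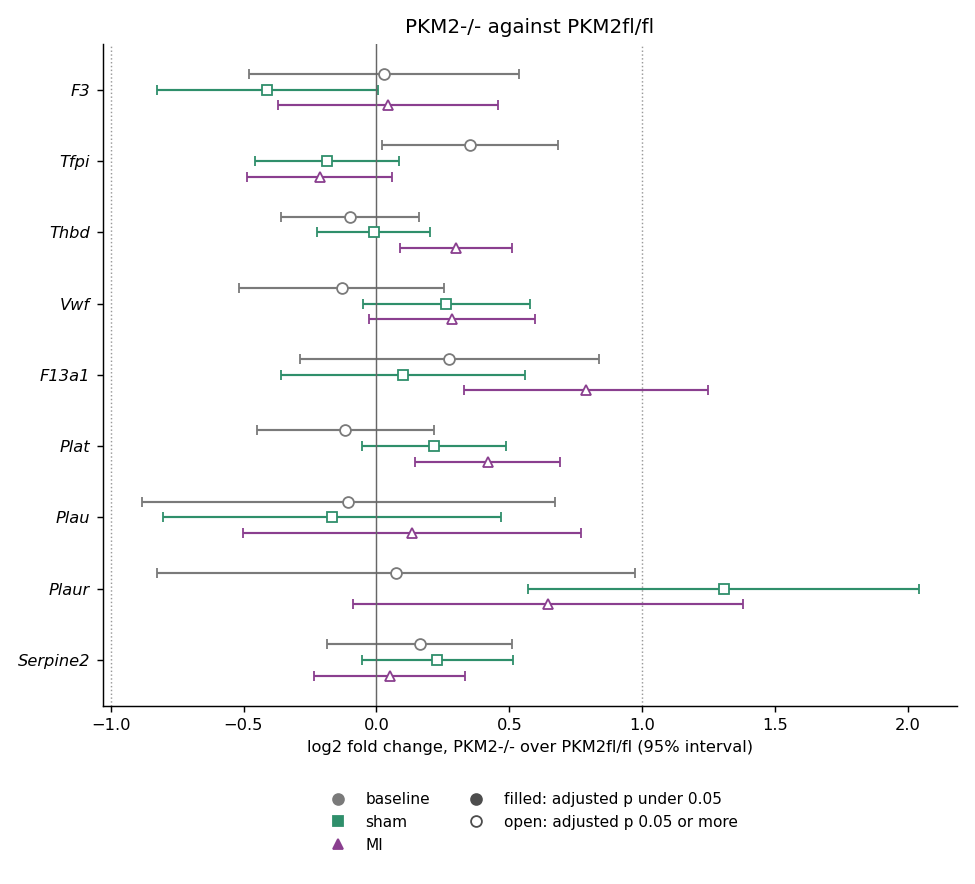
Log2 fold change of PKM2-/- over PKM2fl/fl hearts (x axis; symbols with 95% intervals) for the 9 genes (y axis) at baseline (circles), after sham surgery (squares) and after MI (triangles); all symbols are open because no adjusted p was under 0.05, and dotted lines mark a 2-fold change. *Plaur* after sham surgery (1.31) and *F13a1* after MI (0.79) lay furthest from 0.

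The sums of some marker lists also lay apart between the genotypes after MI. Neutrophil markers summed to 1386 to 2542 in PKM2fl/fl and 4135 to 5253 in PKM2-/- MI hearts, resident macrophage markers to 4772 to 6935 and 7698 to 10462, and platelet and megakaryocyte markers (*Gp9* and *Gp6* at 0 in 1 library each) to 1132 to 1691 and 2025 to 3297. None of these ranges overlapped between the genotypes, beside 18.9% of all single genes without overlap, a share of genes and not of sums. Smooth muscle and pericyte sums also lay apart but were lower in PKM2-/- hearts. They were 13662.5 to 16513.6 in PKM2fl/fl and 11334.5 to 12985.3 in PKM2-/- MI hearts. By single marker, 0 of 6 neutrophil, 0 of 6 resident macrophage and 0 of 4 tested platelet markers passed on the adjusted p. Of the smooth muscle and pericyte markers, 0 of 6 passed. Monocyte and infarct macrophage markers (8 of 8 detected) summed to 61457 to 109364 and 76962 to 81426, and cardiomyocyte markers to 169408 to 390021 and 172879 to 248558, both with overlap. The resident macrophage sum again rests mostly on *Mrc1*, and the median log2 genotype difference of that list was 0.31. From sham to MI the mean of that sum rose in both genotypes. The median log2 fold change of the list was -0.20 in PKM2fl/fl and -0.23 in PKM2-/- hearts. The part of all these lists in the higher *F13a1* and *Plat* values of PKM2-/- MI hearts was not tested.

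**Figure D4:**
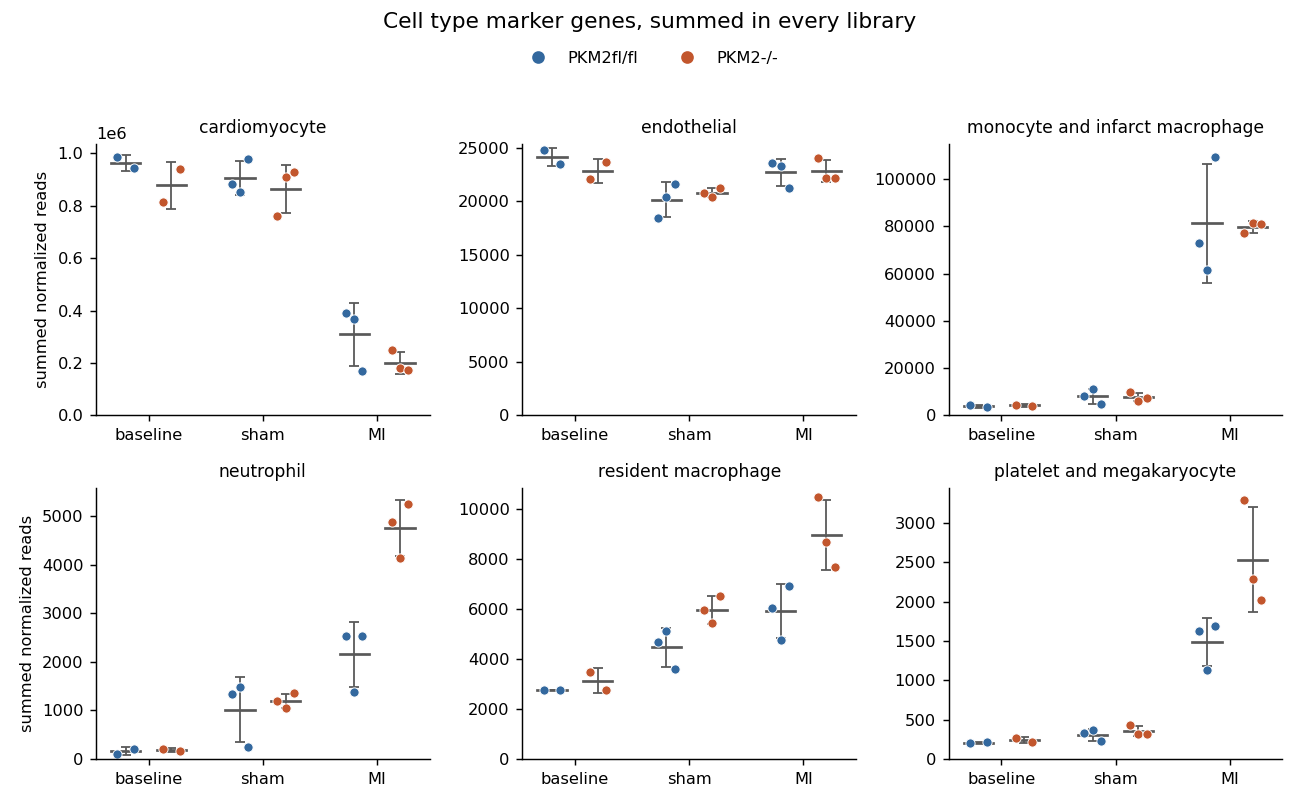
Summed normalized reads (y axis, linear from 0) of 6 lists of cell type markers in all 16 libraries, by treatment and genotype; points are mice, lines are means and bars are SD. Cardiomyocyte sums were lower after MI than after sham surgery and monocyte sums higher in both genotypes, and the neutrophil, resident macrophage and platelet sums of PKM2-/- MI hearts sat above those of PKM2fl/fl MI hearts.

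The wider pathway was read from 6 lists with 66 other genes, of which 43 were tested and 23 were below the minimum. Most of the 23 are the plasma proteins that the liver makes. Among them are prothrombin (*F2*, mean 2.24 normalized reads), the fibrinogen chains (*Fga* at 0 in every library) and plasminogen (*Plg*, mean 0.87). Of 5 liver markers, *Serpina1a*, *Alb*, *Apoa1* and *Ttr* were at 0 in 15, 11, 10 and 4 of 16 libraries. The fifth, *Ahsg*, was read in every library, at 21.0 to 219 normalized reads. Of the 43, 18 were called higher and 3 lower after MI in PKM2fl/fl hearts, and 24 higher and 4 lower in PKM2-/- hearts, against 12.4% higher and 11.1% lower among all genes in PKM2fl/fl and 14.5% and 14.3% in PKM2-/- hearts. In the genotype comparisons and the interaction with MI, 0 of the 43 passed.

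Among coagulation factors, 4 of 7 tested were called higher in each genotype and 0 lower, with a median log2 fold change of 1.15 in PKM2fl/fl and 1.45 in PKM2-/- hearts. *F7*, the plasma partner of tissue factor, rose from a mean of 23.7 to 182 normalized reads in PKM2fl/fl hearts (log2 fold change 2.73, adjusted p = 7.55e-05, limma) and by 2.51 in PKM2-/- hearts. *F10*, which that complex activates, rose by 2.68 and 4.48, and *F5*, the cofactor of activated factor X, by 2.69 and 2.49. The PKM2fl/fl MI hearts spread widely, from 117 to 431 normalized reads for *F10* and from 68.6 to 641 for *F5*. PKM2-/- MI hearts ran from 339 to 384 and from 107 to 176. *Vkorc1*, the vitamin K reductase needed to mature factors VII and X and the target of warfarin, rose by 1.15 and 1.45. The trigger *F3* fell while transcripts of these factors rose, from sham means of at most 35.6 normalized reads for *F7*, *F10* and *F5*.

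Of 7 tested anticoagulants, 2 were called higher and 0 lower in each genotype. *Tfpi2*, a protease inhibitor related to *Tfpi*, rose from a mean of 18.3 to 159 normalized reads in PKM2fl/fl hearts (log2 fold change 3.04, adjusted p = 1.81e-06, limma) and by 2.5 in PKM2-/- hearts, opposite to *Tfpi*. *Procr*, the endothelial receptor that presents protein C to thrombomodulin, rose by 2.12 and 2.65, opposite to *Thbd*. The list medians were 0.21 and 0.16.

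Among genes of the plasminogen system, 5 of 10 tested were called higher and 2 lower in PKM2fl/fl hearts, and 7 higher and 2 lower in PKM2-/- hearts. *Anxa2*, a cell surface receptor of plasminogen and tissue-type activator, rose by 1.93 and 1.94 (adjusted p = 4.4e-08 and 3.18e-08, limma). *Mrc2*, a collagen receptor that associates with the urokinase receptor, rose by 1.70 and 1.61, *Ctsz*, a lysosomal protease, by 1.80 and 2.05, and *Lrp1*, the receptor that clears activator and inhibitor complexes, by 1.19 and 1.21.

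Of the fibrinolysis inhibitors, 2 of 7 tested were called higher and 1 lower in PKM2fl/fl hearts, and 4 higher and 1 lower in PKM2-/- hearts. *Serpinb2*, a serpin that inhibits urokinase, rose by 3.00 and 3.81 (adjusted p = 0.0106 in PKM2fl/fl hearts, limma), *Serpinb8* by 1.07 in PKM2-/- hearts (0.42, adjusted p = 0.169, limma, in PKM2fl/fl), and the protease-trapping *Pzp* fell by 1.54 and fell by 2.46 in the 2 genotypes.

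Of 4 genes of the thrombin receptor family, 2 were called higher in each genotype and 0 lower. Of 8 tested platelet genes 3 were called higher in PKM2fl/fl hearts and 5 higher and 1 lower in PKM2-/- hearts. *F2r*, the main thrombin receptor, rose by 1.09 in PKM2fl/fl hearts (adjusted p = 1.12e-05, limma) and by 0.64 in PKM2-/- hearts, *F2rl3* by 2.09 and 3.53, and *F2rl2* by 1.31 in PKM2-/- hearts (0.87, adjusted p = 0.167, limma, in PKM2fl/fl). *Pf4* and *Ppbp*, chemokines of platelet granules that some macrophages also make, rose by 2.43 and 3.19 in PKM2fl/fl hearts and 2.93 and 4.21 in PKM2-/- hearts. *Selp*, the adhesion molecule of activated platelets and endothelium, rose by 3.04 and 2.92, and *P2ry12*, an ADP receptor of platelets and microglia, by 0.60 and 1.18. After sham surgery against baseline in PKM2-/- hearts, 4 of the 43 were called, 3 higher and 1 lower, against 2.06% of all genes higher and 0.608% lower, and are named here after their values were seen. *Selp* (2.79, adjusted p = 0.00766, limma), *Mmp3* (1.87, adjusted p = 0.0158, limma) and *Tfpi2* (1.36, adjusted p = 0.0312, limma) were higher and *F2rl3* was lower (-1.83, adjusted p = 0.0464, limma).

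**Figure D5:**
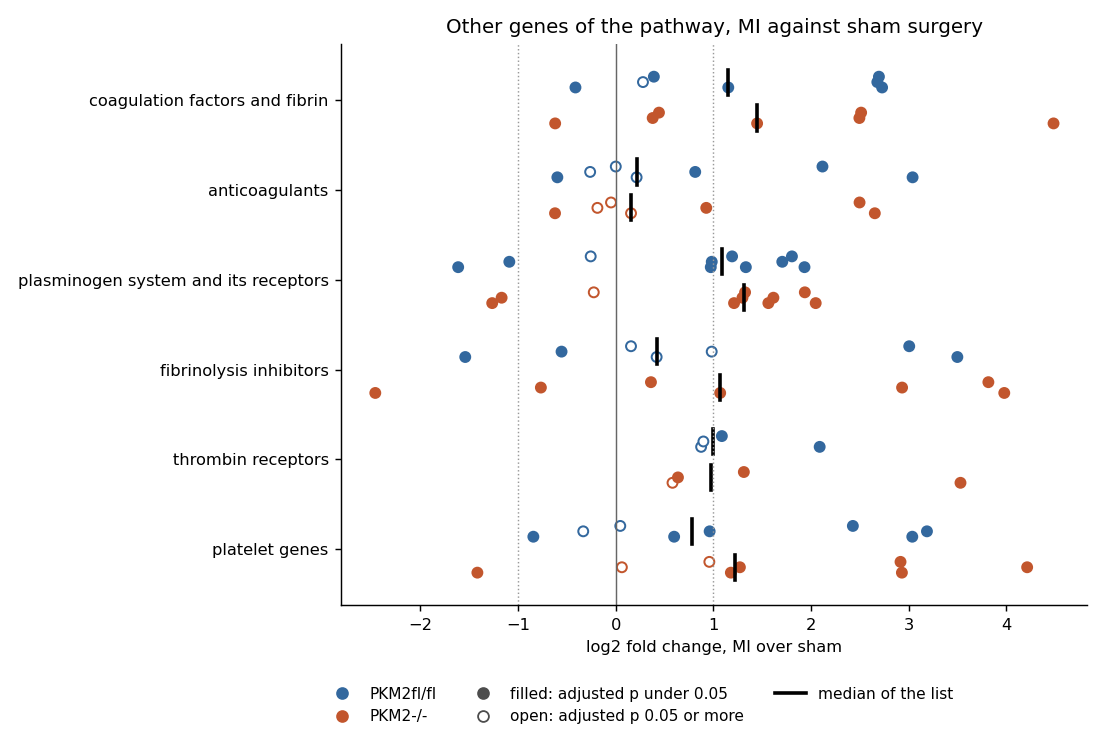
Log2 fold change of MI over sham (x axis) for the 43 tested genes of the wider pathway in 6 lists (y axis), in PKM2fl/fl hearts (upper row of each list) and PKM2-/- hearts (lower row); points are genes, filled where the adjusted p was under 0.05, black bars are list medians and dotted lines mark a 2-fold change. Median values ran from 0.16 for anticoagulants in PKM2-/- hearts to 1.45 for coagulation factors in PKM2-/- hearts.

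Likeness of pattern was measured as the root mean square difference in log2 normalized count, each gene centred on its own mean over the 16 libraries, against 20567 other genes. *Plat* was nearest to *Tpm3* (0.11) and *Rhoc* (0.13), beside a median of 0.85 over all genes, and *Serpine2* to *Ndel1* (0.10) and *Stat3* (0.11), beside 0.51. *Plau* was nearest to *Tmsb10* (0.27) and *Mxd3* (0.27), *Plaur* to *Atp8b4* (0.34) and *Cytip* (0.34), and *F3* to *Cbr1* (0.19) and *Frg2f1* (0.19). *Thbd* was nearest to *Aar2* (0.086) and *Mocs2* (0.088), *Tfpi* to *Vps13a* (0.12) and *Gm35188* (0.13), and *Vwf* to *Igfbp4* (0.20) and *Mocos* (0.21). The genes nearest to *F13a1*, *Gm49144* (0.083) and *Gm30489* (0.095), are the 2 that overlap it on the other strand, so these values may share reads and are uncertain as separate genes. Among the 9 genes, *Serpine2* and *Vwf* were the closest pair (0.26), followed by *Plat* and *F13a1* (0.32), and *Plaur* and *F3* were the farthest apart (2.19).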

How the data were processed

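RNA from left ventricles was depleted of rRNA and sequenced in pairs on a NextSeq 550. The authors trimmed reads with PRINSEQ, aligned them with HISAT2 to mm10, counted them per gene with featureCounts and deposited, as a signal per gene and library, the reads divided by the DESeq2 size factor. Tool versions, strand and multi-mapping settings are not given in the sources used here. The table's columns of the authors' own baseline comparison were not used.

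Dividing each deposited signal by the step of its library gave whole reads (tolerance 0.05) for 100% of values. The libraries held 20623769 to 71855101 reads, which limits precision for the lowest genes. Limma 3.58.1 (R 4.3.3) with a mean-variance trend was fitted to log2(normalized count + 1) of all 16 libraries in 6 groups, since edgeR had been planned for raw counts and limma for normalized values. A fold change on this scale understates that of low genes. A minimum mean of 10 left 20576 genes, over which p was adjusted by the Benjamini-Hochberg method. A call needed both an adjusted p below 0.05 and a change of 2-fold or more. All tests were two-sided. EdgeR 4.0.16 and DESeq2 1.42.0 on the recovered reads were alternatives. Replicates were separate mice, and no 2 libraries agreed within sampling noise.

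The 9 genes and the lists were chosen with earlier results of these data known. Named were the 9 genes, at most 4 genes of each pathway list (those called after MI in either genotype with the smallest adjusted p in PKM2fl/fl hearts), any list gene called between genotypes, the 2 genes nearest to each of the 9, and *Pkm*. 1 gene that this rule names is not reported here. Transcript lengths and strands come from GENCODE release M39 on GRCm39, positions and promoters from RefSeq on GRCm38.p6.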

Additional observations from a re-analysis of the deposited data

Results flagged for a closer look

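For 3 of the 9 genes, every PKM2-/- heart lay on one side of the PKM2fl/fl hearts at baseline and on the opposite side after MI, a pattern also met by 771 of the 20576 genes tested (3.75%). The test of the difference, the genotype effect after MI minus that at baseline, was added after the data were seen, and 0 of the 3 passed it. Since the pattern itself picks genes with a large difference, the values below describe these genes and their p is no independent test.

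*Plat* had 313 and 320.4 normalized reads in PKM2fl/fl and 312 and 273 in PKM2-/- hearts at baseline, then 986, 769 and 734 against 1228, 1031 and 1052 after MI. The difference of the genotype effects was 0.54 on the log2 scale (standard error 0.20, adjusted p = 0.432, limma). The baseline gap was small, since 312 and 313 are adjacent.

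*Thbd* had 1399.5 and 1410.5 normalized reads in PKM2fl/fl and 1266 and 1358 in PKM2-/- hearts at baseline, then 1147, 1155 and 1135 against 1677, 1261 and 1326 after MI. The difference was 0.40 (standard error 0.16, adjusted p = 0.453, limma).

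*Tfpi* had 985.1 and 1337 normalized reads in PKM2fl/fl and 1462 and 1469.7 in PKM2-/- hearts at baseline, then 785, 856 and 897 against 703, 709 and 775 after MI. The difference was -0.57 (standard error 0.20, adjusted p = 0.389, limma), a sign that turned to 0.39 with total-read scaling.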

How the results depend on the processing

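Counts of the 9 genes called were recomputed with total-read and TMM scaling, no minimum mean and a minimum of 50, pseudocounts of 0.1 and 8, only the groups compared, edgeR, DESeq2, sample weights, a replicate block, no threshold on the fold, and each library left out. Of these counts, 273 stayed within 1.5 times the reported one and 7 did not. Counts over all genes moved more often, since 184 stayed within 1.5 times and 96 did not. Of the log2 fold changes 2504 kept their call, 13 gained one, 3 lost one and 0 reversed a called sign. Signs of some differences that were not called did turn, among them those given above for total-read scaling. Without the threshold on the fold, 7 genes passed after MI in PKM2fl/fl and 7 in PKM2-/- hearts, and 2 in sham against baseline PKM2-/- hearts. Between genotypes after sham surgery DESeq2 called 1. Leaving out libraries gave 0 to 1 between genotypes after MI, 1 only without PKM2fl/fl MI replicate 3, and 0 to 1 in sham against baseline PKM2-/- hearts, 0 without PKM2-/- baseline replicate 1 or PKM2-/- sham replicate 2. Without baseline replicate 2, *Vwf* was called in place of *Plaur*. The cause was not tested. Same-numbered libraries did not deviate together (36 pairs, r from -0.20 to 0.13, 1 over 0.1), which gave no sign that the numbers pair the mice. Deviations from the mean of 2 or 3 libraries cancel within a group, so these values cannot exclude pairing. With the replicate block 4, 4 and 1 genes were called after MI in PKM2fl/fl, after MI in PKM2-/- and in sham against baseline PKM2-/- hearts, and 0 elsewhere.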
